A study of Mus musculus with 12 samples.

Results

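The 9 genes described here, Ms4a1, Cd79a, Cd79b, Cr2, Fcer2a, Ighd, Cxcl13, Cxcr5 and Ccr7, are expressed by B cells and by the stroma of lymphoid follicles. They were taken by symbol from a table of 53715 mouse genes, and all 9 had a row. The symbols were selected on their measured levels (CPM) across these same libraries, by tissue and between the libraries of 1 group, so the levels by library and by tissue are a description, and the model values given with them are not independent evidence of a pattern.

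The 12 libraries were made from RNA of the mucosa of ileum or colon, taken from male C57BL/6J mice at 8 weeks of age. The Slc39a8-IEC KO mice carried Slc39a8-fl/fl together with Villin-Cre, which is active in intestinal epithelial cells, so the loss of the metal ion transporter Slc39a8 is directed to the epithelium and not to lymphocytes or stroma. The controls are labelled as Slc39a8-fl/fl without the Cre. The study's methods instead describe its controls as mixed, with floxed, wild-type and Villin-Cre mice, and do not say which of these were sequenced. Each combination of tissue and genotype had 3 libraries, and nothing in the labels ties an ileal library to a colonic library of the same mouse. Mapped totals ran from 16749138 to 27903083 counts per library, with a median of 19929746. Slc39a8 was at 5.22 to 8.38 counts per 1000000 (CPM) in control ileum against 2.62 to 4.35 CPM in KO ileum, and at 20 to 20.8 CPM in control colon against 7.34 to 11.5 CPM in KO colon, so the targeted gene was lower in every KO library than in every control library of its tissue.

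A pair of ileal libraries stood apart from the rest. In control replicate 3 and KO replicate 1, 7 smooth muscle genes summed to 40.4 and 22.7 CPM, against 2119 to 3147 CPM in the other 4 ileal libraries and 2858 to 4402 CPM in the 6 colonic libraries. There was 1 such library in each genotype. These are called below the ileal libraries of low muscle RNA, a name that rests on muscle genes alone, and results are given with and without them.

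B cells recognise antigen through surface immunoglobulin, which signals through the paired chains Cd79a and Cd79b, and mature naive B cells carry IgD beside IgM. In the intestine they gather in Peyer's patches, isolated lymphoid follicles and the colonic patches, where stromal cells secrete Cxcl13 and B cells follow it through its receptor Cxcr5. Ccr7 guides lymphocytes and dendritic cells toward the T cell zones. Once B cells become plasma cells they lose Ms4a1 and most of the follicular receptors and make secreted antibody instead.

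The letters just upstream of the gene starts are shown for the 4 members, out of 9, that RefSeq promoter sequences (GRCm38.p6) were at hand for. They are a description, and their part in the levels was not tested. Each window ends before the start of the gene in RefSeq and in the annotation used for the counts. Capitals mark matches on either strand to any of 6 short motifs searched: the TATA box as TATAAA, the octamer as ATTTGCAT, the EBF core as CCCNNGGG, the PU.1-type motif as GAGGAA, the E-box as CAGGTG and the NF-kB-type motif as GGANTTTCC.
Cd79a, chr7:24897247-24897380, plus strand: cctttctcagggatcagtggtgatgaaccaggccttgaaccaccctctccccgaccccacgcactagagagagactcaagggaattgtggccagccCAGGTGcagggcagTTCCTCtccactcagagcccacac
Cr2, chr1:195176720-195176969, minus strand: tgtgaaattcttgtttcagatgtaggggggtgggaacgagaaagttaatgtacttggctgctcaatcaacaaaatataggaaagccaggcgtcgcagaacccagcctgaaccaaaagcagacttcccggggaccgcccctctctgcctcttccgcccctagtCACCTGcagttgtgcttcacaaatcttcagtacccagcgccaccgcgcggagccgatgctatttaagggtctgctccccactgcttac
Fcer2a, chr8:3694176-3694424, minus strand: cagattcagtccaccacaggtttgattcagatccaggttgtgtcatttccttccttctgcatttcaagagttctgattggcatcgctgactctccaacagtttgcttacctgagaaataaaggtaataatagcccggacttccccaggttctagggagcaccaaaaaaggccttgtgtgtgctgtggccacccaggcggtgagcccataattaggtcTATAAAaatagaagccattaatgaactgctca
Cxcl13, chr5:95956689-95956938, plus strand: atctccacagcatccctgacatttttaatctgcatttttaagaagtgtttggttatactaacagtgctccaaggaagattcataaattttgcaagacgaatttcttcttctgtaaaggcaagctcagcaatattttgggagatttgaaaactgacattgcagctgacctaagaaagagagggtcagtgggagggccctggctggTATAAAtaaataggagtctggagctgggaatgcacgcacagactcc
An E-box stood in the windows of Cd79a and Cr2, and 9.75% of 32851 mouse promoters hold one in the first 134 bases and 17.2% in 250 bases. The Cd79a window also held a PU.1-type motif, present in 13.3% of promoters over the same 134 bases. Fcer2a and Cxcl13 each had a TATA box, at 33 and 46 bases before the start, as do 12.4% of promoters. No octamer, EBF core or NF-kB-type motif was found in these letters, and no motif was shared by all 4 windows.

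The B cell surface and receptor genes were abundant in the ileal libraries of low muscle RNA and scarce in the others. Ms4a1, which encodes CD20 and lies on the minus strand of chr19:11249675-11266241 (mm10), was at 0.731, 0.611 and 9.6 CPM in control ileum and at 11.9, 0.625 and 0.757 CPM in KO ileum, in the order of replicates 1 to 3. In colon it was at 1.13, 2.25 and 1.51 CPM in controls and at 0.753, 0.932 and 1.12 CPM in KO mice. The 2 high values came from the ileal libraries of low muscle RNA, and the lower of them was 12.7 times the highest of the other 4 ileal libraries. The 4 remaining ileal libraries were alike to within 0.611 and 0.757 CPM, on 11 to 16 counts each.

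Cd79a, the first signalling chain of the B cell receptor (plus strand, chr7:24897381-24902197), was at 0.598, 2.83 and 12.7 CPM in control ileum and at 13.8, 1.52 and 3.36 CPM in KO ileum. Colonic values were 0.102, 1.25 and 0.8 CPM in controls and 0.33, 0.155 and 1.87 CPM in KO mice. The same 2 ileal libraries led, but the other 4 were spread more widely than for Ms4a1, from 0.598 to 3.36 CPM.

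Cd79b, the second chain (minus strand, chr11:106311341-106314762), was at 1.86, 3.83 and 9.17 CPM in control ileum and at 10.1, 2.81 and 2.65 CPM in KO ileum. In colon it was at 0.307, 1.53 and 0.564 CPM in controls and at 0.282, 0.518 and 1.24 CPM in KO mice. It was the 1 member for which all 6 ileal libraries were above all 6 colonic libraries.

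Ighd encodes the constant region of IgD (minus strand, chr12:113406604-113416324). It was at 0.199, 0.722 and 6.2 CPM in control ileum, at 9.23, 0.195 and 0.757 CPM in KO ileum, at 0.205, 0.719 and 0.611 CPM in control colon and at 0.377, 0.207 and 0.747 CPM in KO colon. Outside the ileal libraries of low muscle RNA, the ileum (0.195 to 0.757 CPM) and the colon (0.205 to 0.747 CPM) covered nearly the same range.

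The follicle receptors Cr2 and Fcer2a had few counts outside the ileal libraries of low muscle RNA. Cr2, the complement receptor of B cells and follicular dendritic cells (minus strand, chr1:195136811-195176716), was at 0.0665, 0.111 and 5.86 CPM in control ileum and at 6.31, 0.117 and 0.142 CPM in KO ileum. It had 138 and 106 counts in the ileal libraries of low muscle RNA and 1 to 3 counts in each of the other 4. In colon it was at 0, 0.479 and 0.282 CPM in controls and at 0.0471, 0.0518 and 0.456 CPM in KO mice, on 0 to 11 counts. Outside those 2 libraries no library passed 0.479 CPM.

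Fcer2a, the low-affinity IgE receptor CD23 (minus strand, chr8:3681737-3694175), was at 0.399, 0 and 2.04 CPM in control ileum and at 4.77, 0.117 and 0.284 CPM in KO ileum. Colonic values were 0, 0.0959 and 0.376 CPM in controls and 0.0942, 0 and 0.124 CPM in KO mice. It had 48 and 80 counts in the ileal libraries of low muscle RNA and 0 to 8 counts in the other 10. A count of 0 allows up to 3 counts, which is 0.117 to 0.199 CPM depending on the library, so the colonic groups cannot be ordered at this depth. Fcer2a was also the 1 member that the filter on low counts removed.

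The chemokine genes were less uniform. Cxcl13, the follicular attractant of B cells (plus strand, chr5:95956951-95961068), was at 1.26, 2.83 and 4.08 CPM in control ileum and at 5.66, 1.21 and 1.51 CPM in KO ileum. In colon it was at 1.28, 3.4 and 2.54 CPM in controls and at 1.55, 1.14 and 3.65 CPM in KO mice. The 2 ileal libraries of low muscle RNA were again the highest, but the lower of them was only 1.44 times the highest of the other 4, and the colon reached the same range as the ileum.

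Cxcr5, the receptor for Cxcl13 (minus strand, chr9:44511787-44561877), was at 0.399, 0.333 and 3.35 CPM in control ileum and at 2.5, 0.234 and 0.331 CPM in KO ileum. Colonic values were 0.153, 0.527 and 0.282 CPM in controls and 0.706, 0.362 and 0.747 CPM in KO mice. Its exons share 110 bases with Bcl9l on the opposite strand, and Bcl9l was at 30.1 and 26.5 CPM in the ileal libraries of low muscle RNA against 13.4 to 16.6 CPM in the other 4. The sources used here do not state whether the counting used strand, so some reads of Bcl9l may be counted in Cxcr5, and the size of that share was not tested.

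Ccr7 (minus strand, chr11:99144196-99155077) was the exception. It was at 0, 0.888 and 1.15 CPM in control ileum and at 0.834, 0.39 and 0.426 CPM in KO ileum, so the ileal libraries of low muscle RNA overlapped the others. In colon it was at 0, 0.192 and 0.141 CPM in controls and at 0.188, 0 and 0.166 CPM in KO mice, on 0 to 4 counts.

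**Figure D1:**
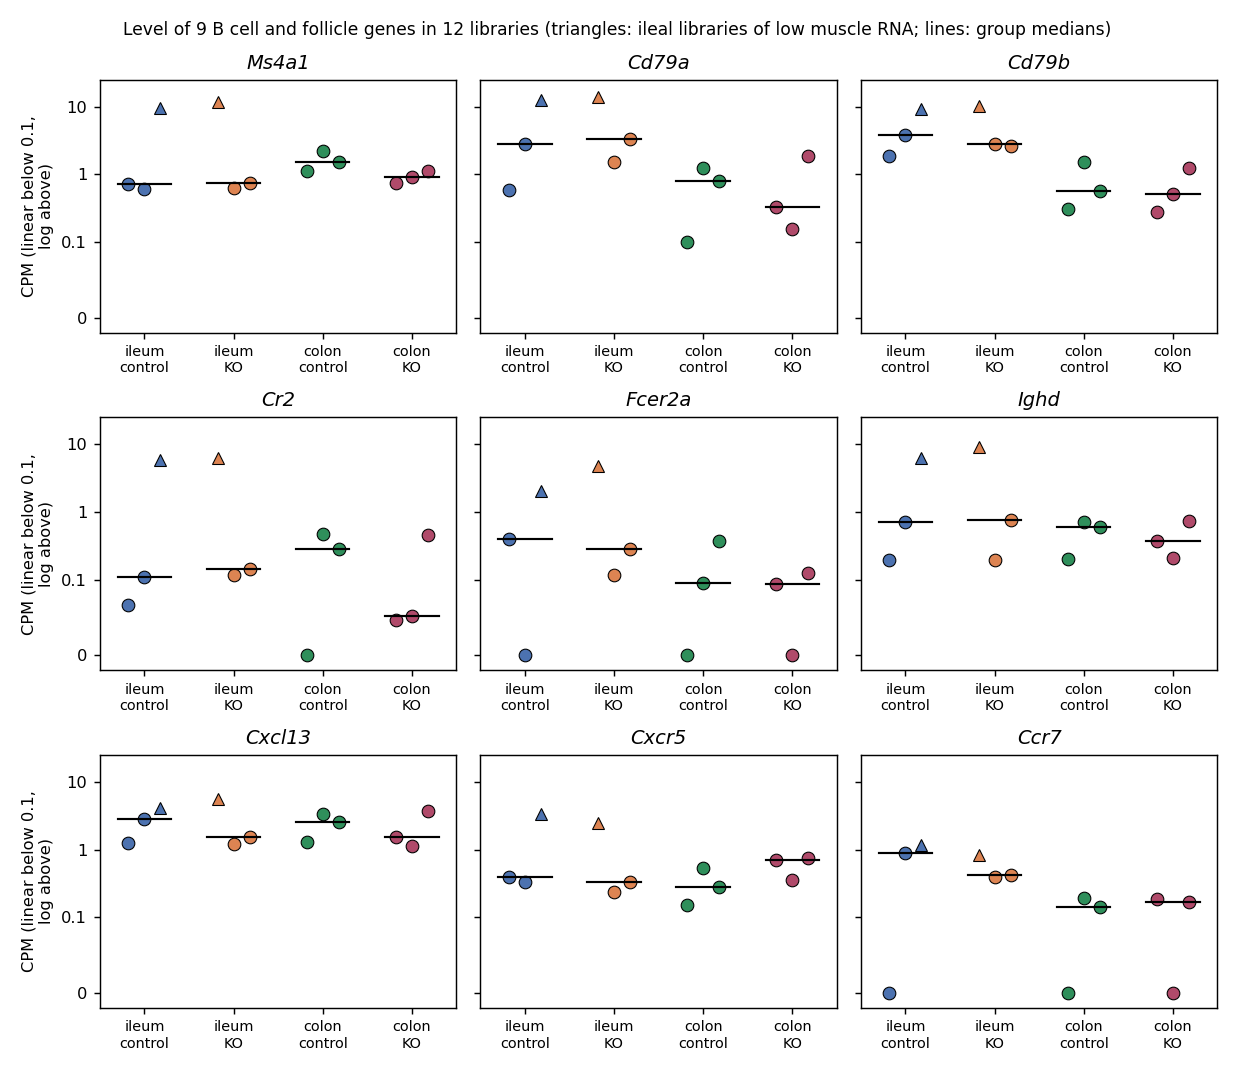
CPM of each of the 9 genes (vertical axis, linear below 0.1 and logarithmic above) in the 12 libraries by tissue and genotype; triangles are the 2 ileal libraries of low muscle RNA and lines are group medians. For 8 genes the triangles are above the other 4 ileal libraries, and for Ccr7 they overlap them.

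For 8 of the 9 genes both ileal libraries of low muscle RNA were above the other 4 ileal libraries. Among the 8 members kept by the filter this held for 7, beside 23.2% of all 16558 genes kept. For 4 of these 8, Ms4a1, Cr2, Ighd and Cxcr5, the gap was more than 4-fold, beside 24 of all genes kept or 0.145%. Of the 8 members kept, 0 were below the other 4 in both of these libraries, beside 27.2% of all genes kept. The members were listed with these values known, and nothing is read from these shares. Fewer B cells and less of these RNAs per cell cannot be told apart in RNA from whole mucosa, and the part of the muscle RNA, or of what it stands for, in these levels was not tested.

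**Figure D2:**
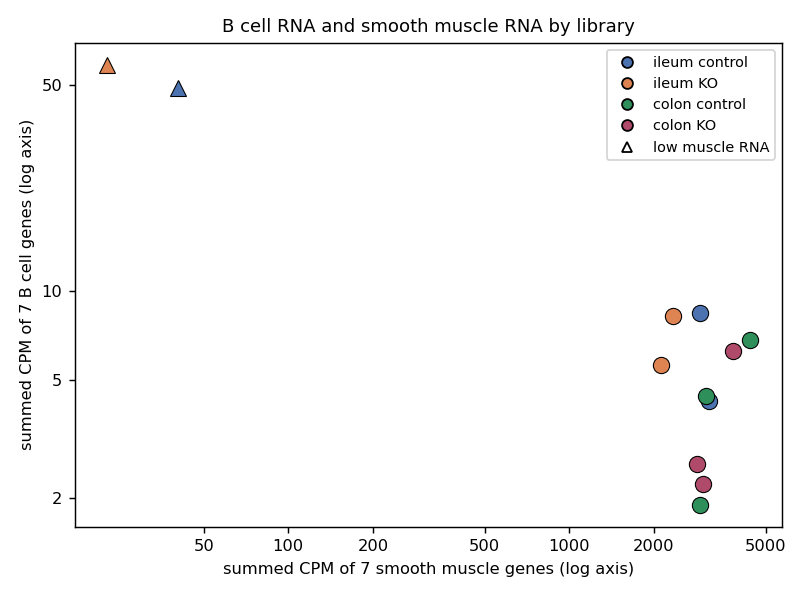
Summed CPM of the 7 B cell genes Ms4a1, Cd79a, Cd79b, Cr2, Fcer2a, Ighd and Cxcr5 (vertical) against summed CPM of 7 smooth muscle genes (horizontal), 1 point per library, both axes logarithmic. The triangles lie at 48.9 and 58.7 CPM of B cell genes with 40.4 and 22.7 CPM of muscle genes, and the other 10 libraries hold 1.89 to 8.44 CPM of B cell genes.

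Loss of Slc39a8 from the epithelium was not accompanied by a detectable change of the 9 genes. In ileum, Ms4a1 averaged 3.65 ± 5.15 CPM in controls and 4.43 ± 6.48 CPM in KO mice, and Cr2 averaged 2.01 ± 3.33 and 2.19 ± 3.57 CPM (SD, n = 3 for each). Both SDs exceeded their means, and in each group the library of low muscle RNA supplied most of the sum. In colon, Cd79a averaged 0.716 ± 0.577 CPM in controls and 0.784 ± 0.942 CPM in KO mice, and Cxcl13 averaged 2.41 ± 1.07 and 2.11 ± 1.35 CPM (SD, n = 3).

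The log2 fold changes of KO over control were fitted by edgeR for the 8 members kept. In ileum they ran from -0.49 (SE 0.98) for Cxcr5 to 0.47 (SE 1.23) for Ighd, and in colon from -0.79 (SE 1.2) for Ms4a1 to 0.9 (SE 1.09) for Cxcr5. Over both tissues they ran from -0.24 (SE 0.8) for Ms4a1 to 0.19 (SE 0.9) for Ighd. Every estimate was smaller than its SE.

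No member was called in ileum, in colon, over both tissues or for the difference between the tissues at an adjusted p of 0.1, beside 0% of all 16558 genes in each of these comparisons. The deleted gene Slc39a8 was itself uncalled, at -1.05 (SE 0.26) in ileum and -1.2 (SE 0.25) in colon. Over both tissues it was at -1.13 (SE 0.17, edgeR adjusted p = 0.382), where DESeq2 did call it (adjusted p = 1.25e-05). An uncalled gene in these edgeR fits may therefore still differ. At an unadjusted p under 0.05 the 4 comparisons held 252, 385, 642 and 169 genes, none of them a member, and DESeq2 called 2, 0, 4 and 1 genes, again no member. DESeq2 gave no p-value for Ms4a1 and Cr2, nor for Cxcr5 over both tissues, since it treats a gene with 1 extreme library in a group as an outlier.

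Without the 2 ileal libraries of low muscle RNA the SEs fell and the members remained uncalled. The colonic difference of Ms4a1 was then -0.78 (SE 0.36), with an edgeR p of 0.0518 and an adjusted p of 0.886. Ms4a1 was the 1 member whose KO and control libraries did not overlap in colon, with all 3 KO values (0.753 to 1.12 CPM) below all 3 control values (1.13 to 2.25 CPM). Such a split occurred for 12.8% of all genes kept in colon and 3.70% in ileum, and no member split in ileum. The exact two-sided permutation test of log2(CPM + 0.5) gave p = 0.1 for Ms4a1 in colon, the smallest value 3 against 3 libraries allow. Over both tissues, where 400 arrangements were possible, the exact permutation p ran from 0.555 for Ms4a1 to 0.99 for Cr2. A p above the threshold does not show that the genotypes were alike, and the SEs of 0.45 to 1.17 on the log2 scale over both tissues limit what these libraries could show.

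**Figure D3:**
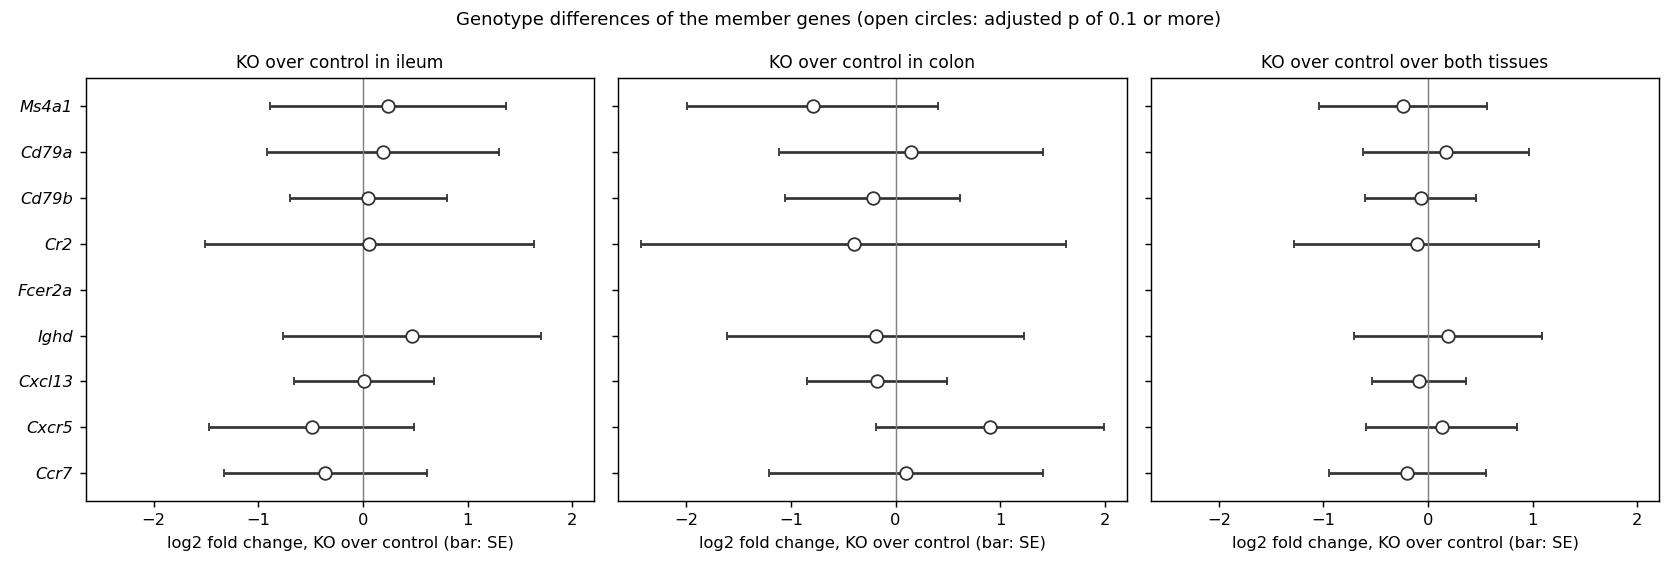
Fitted log2 fold change of KO over control (horizontal, bars are 1 SE) for the 8 members tested, in ileum, in colon and over both tissues; Fcer2a was not tested. Every bar spans 0 and every circle is open, which marks an adjusted p of 0.1 or more.

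Between the tissues, Cd79b was the 1 member called in both genotypes with all libraries and without both ileal libraries of low muscle RNA. In control mice its mean was 4.95 ± 3.78 CPM in ileum and 0.802 ± 0.647 CPM in colon (SD, n = 3), a log2 fold change of -2.62 (SE 0.82, adjusted p = 0.0336, edgeR). In KO mice the means were 5.2 ± 4.27 and 0.681 ± 0.501 CPM, a log2 fold change of -2.9 (SE 0.83, adjusted p = 0.0227). With the 2 ileal libraries left out the values were -1.84 (SE 0.63, adjusted p = 0.0414) and -1.96 (SE 0.63, adjusted p = 0.0301). In control mice the call was lost when ileum control replicate 3, colon control replicate 1 or colon control replicate 3 alone was left out (adjusted p of 0.114, 0.112 and 0.11), while in KO mice it held whichever library was left out.

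Cd79a was lower in colon by a similar amount, with log2 fold changes of -2.9 (SE 1.24, adjusted p = 0.106) in controls and -2.94 (SE 1.23, adjusted p = 0.0967) in KO mice. In the 10 other libraries these were -1.28 (adjusted p = 0.334) and -1.57 (adjusted p = 0.206). With all other libraries kept, the KO call was lost without ileum control replicate 2, ileum KO replicate 1 or 3, colon control replicate 2 or 3, or colon KO replicate 1 or 2, with adjusted p of 0.108 to 0.362, and the value was -1.6 without ileum KO replicate 1.

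Thus 1 member in controls and 2 in KO mice were called lower in colon and none higher, beside 19.6% and 20.0% of all genes called lower and 16.2% and 17.1% called higher. The median log2 fold change of the 8 members was -2.39 in controls and -2.55 in KO mice, beside 0.02 and 0.01 over all genes tested. Without the 2 ileal libraries the members' medians were 0.11 and 0.45. The list was composed with the tissue levels known and nothing is read from these counts.

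The other members changed direction or size with the ileal libraries of low muscle RNA. Ms4a1 was at -1.18 (SE 1.16, adjusted p = 0.481) in controls with all libraries and at 1.26 (SE 0.44, adjusted p = 0.0439) without them, so that with 10 libraries it was called higher in colon. With only ileum control replicate 3 left out the value was also 1.26, but with an adjusted p of 0.457. In KO mice it went from -2.22 (adjusted p = 0.195) to 0.45 (adjusted p = 0.44). Cr2 went from -2.98 to 1.43 in controls and from -3.43 to 0.58 in KO mice, none of them called. Ighd went from -2.22 to 0.11 and from -2.88 to -0.04.

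With the 10 remaining libraries, 7 members passed the filter and Ccr7 and Fcer2a did not. In controls 1 of the 7 was called higher and 1 lower in colon, beside 19.9% and 22.0% of all genes. In KO mice 0 were higher and 1 lower, beside 21.5% and 21.7%. Ms4a1 and Cd79b, both B cell genes, were thus called in opposite directions in the same 5 control libraries. Their ratio, given below, is made from the same values and is not further evidence.

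**Figure D4:**
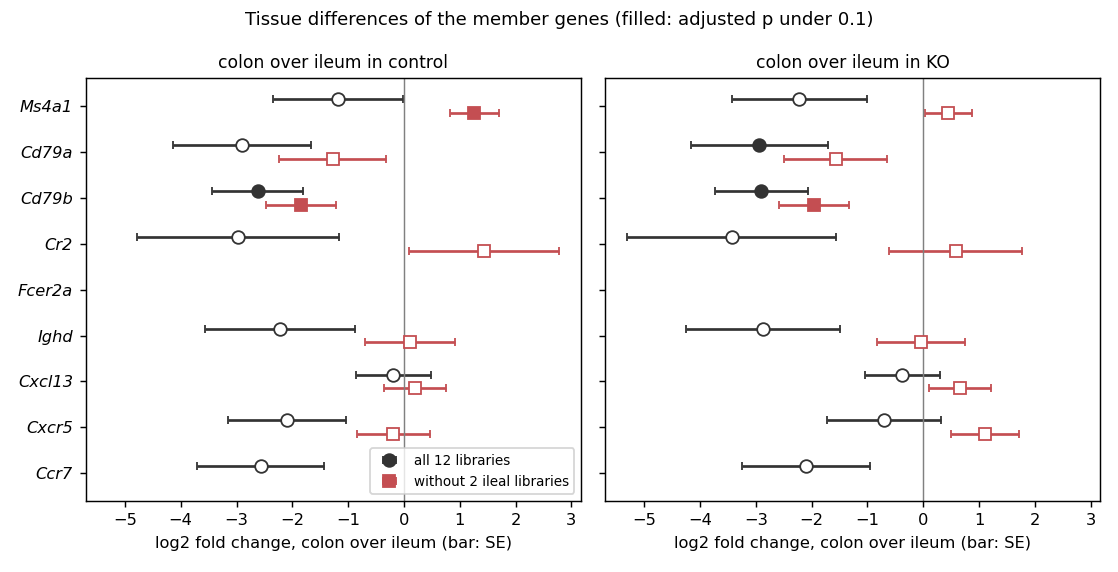
Fitted log2 fold change of colon over ileum (horizontal, bars are 1 SE) in control and KO mice, with all 12 libraries (circles) and without the 2 ileal libraries of low muscle RNA (squares); filled symbols have an adjusted p under 0.1. Cd79b stays left of 0 in both fits, at -2.62 and -1.84 in controls, while Ms4a1 moves from -1.18 to 1.26.

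For each CPM of Cd79b there were 0.159 to 0.393 CPM of Ms4a1 in the 4 other ileal libraries, 1.05 and 1.18 CPM in the ileal libraries of low muscle RNA and 0.9 to 3.67 CPM in colon. The first range did not overlap the other two. The ratio of Cxcl13 to Cd79b divided the libraries by tissue instead, with 0.431 to 0.739 in all 6 ileal and 2.2 to 5.5 in all 6 colonic libraries. Cd79a to Cd79b did not divide them. It was 1.36 and 1.38 in the ileal libraries of low muscle RNA. The other ileal libraries were at 0.321 to 1.27 and the colonic libraries at 0.3 to 1.5. Ms4a1 had 11 to 16 counts in the other 4 ileal libraries, and Cd79b had 6 to 32 counts in the colonic libraries. The genes of these ratios were listed with their values known, and no ratio was tested.

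The ratios of antibody genes also differed between these sets of libraries. Ighd over Ighm, the IgD to IgM constant regions, was 0.241 and 0.261 in the ileal libraries of low muscle RNA, 0.0309 to 0.0925 in the other 4 and 0.0449 to 0.129 in colon. Jchain, which joins secreted IgA and IgM, stood at 8.99 and 11.3 CPM for each CPM of Cd79b in those 2 libraries, against 165 to 306 in the other ileal libraries and 137 to 564 in colon. The second ratio shares its denominator with those to Cd79b above, and both were chosen after the values were seen and were not tested.

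Summed over the 9 members, the libraries held 54.1 and 65.2 CPM in the ileal libraries of low muscle RNA, 5.52 to 12.2 CPM in the other ileal and 3.17 to 10.5 CPM in the colonic libraries. Cxcl13 supplied 7.53% and 8.68% of that sum in the first, 14.8% to 23.3% in the second and 32.6% to 40.3% in the third. Cr2 supplied 10.8% and 9.69%, then 0.913% to 1.62%, then 0% to 4.59%. The shares of Cxcl13 thus did not overlap between the sets, while the Cr2 shares of the second lay within those of the third. The Cr2 shares rest on 1 to 3 counts in the other ileal and 0 to 11 counts in the colonic libraries. Both genes were picked with their values known, and no test was made.

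Per kilobase of exon, the ileal order in both genotypes began with Cd79a (3.69 CPM per kb in controls, 4.28 in KO mice), Cd79b (3.46 and 3.63) and Cxcl13 (2.37 and 2.43), and ended with Cr2 (0.248 and 0.27). In colon Cxcl13 came first, at 2.09 CPM per kb in controls and 1.84 in KO mice, ahead of Cd79a (0.491 and 0.538) and Cd79b (0.56 and 0.476), which exchanged places between the genotypes within their spread. Cr2 was last there too, at 0.0313 and 0.0228. Ighd followed with 0.269 and 0.233 in colon.

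Within groups the members varied more than most genes. They were selected on their levels between the libraries of 1 group, so nothing is read from their rank. The comparison is with all genes kept, whatever their counts. The SD of log2 CPM pooled over the 4 groups had a median of 1.58 over the 9 members, from 0.89 for Cxcl13 to 2.19 for Cr2, beside a median of 0.32 over all genes kept. The median fell to 0.87 without the 2 ileal libraries, beside 0.26 for all genes. Ms4a1 then dropped to 0.33, which was larger than in 63.3% of genes, whereas Cd79a stayed at 1.39, larger than in 99.4%. The share of counting error in this spread was not tested.

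Over the 6 ileal libraries Pearson's r of log2 CPM was above 0 for all 36 pairs of members, with a median of 0.9, and Spearman's rho had a median of 0.71. These values rest on the 2 libraries: over the other 4 the median r was 0.22, with 21 of 36 pairs above 0. Over the 6 colonic libraries, where no library stood apart in muscle RNA, 35 of 36 pairs were above 0 and the median r was 0.7. The closest colonic pairs were Cd79a with Ighd (r = 0.98), Cd79a with Cxcl13 (r = 0.98) and Ighd with Cxcl13 (r = 0.98), led by colon KO replicate 3 and colon control replicate 2. Ms4a1 was less close to Cd79a there (r = 0.54) and did not follow Cxcr5 (r = -0.12). In colon these pairs include Cr2 at 0 to 11 counts per library, Fcer2a at 0 to 8 and Ccr7 at 0 to 4. The members were selected on their levels across these libraries. No share for pairs of other genes is given beside these counts of pairs, and nothing is read from them. All points share library depth, and no test was made.

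The genes most like the B cell members, by the mean of r within ileum and within colon among 16535 genes, included Ighm (0.99 in ileum and 0.9 in colon), Bcl11a (0.9 and 0.98), Pou2f2 (0.97 and 0.9), Arhgef12, Bex1, Spib (0.98 and 0.87), Siglecg (0.95 and 0.89), Fam234b and Mybbp1a. Ighm encodes the IgM constant region, and Pou2f2 and Spib are transcription factors used in B cells. With r over 0.9 in ileum alone there were 1207 genes, and with r over 0.9 in both tissues there were 6.

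Other genes of the B cell and its follicle were taken from 13 lists, which were also drawn up with earlier results of these data known. Of all 16558 genes kept, 23.2% were higher and 27.2% lower in both ileal libraries of low muscle RNA than in the other 4. In colon over ileum, 19.6% were called lower and 16.2% higher in controls, and 20.0% and 17.1% in KO mice. Without the 2 ileal libraries these were 22.0% and 19.9%, then 21.7% and 21.5%. The list counts stand beside these shares, and nothing is read from them. Counts of genes higher or lower in those libraries include genes that the filter removed. Where it removed any, the counts among the genes kept are also given. Of 20 B cell surface and receptor signalling genes, 15 were higher in both ileal libraries of low muscle RNA than in the other 4, among them Ighm (25.7 and 35.3 against 6.32 to 8.94 CPM) and Cd83 (8.92 and 10.8 against 3.17 to 4.32 CPM). The inhibitory Fc receptor gene Fcgr2b was lower in both (2.72 and 3.4 against 4.19 to 6.22 CPM). Among the 16 genes of this list kept by the filter, 11 were higher and 1 lower. Blnk, an adaptor of the B cell receptor, broke the pattern, at 67.1 to 92.5 CPM in colon against 11.4 to 19.6 CPM over all 6 ileal libraries. Without Blnk the list summed to 106 and 129 CPM, then 30.5 to 44.5 CPM in the other ileal and 21.6 to 36.9 CPM in the colonic libraries.

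In colon over ileum, 6 of the 16 tested genes of that list were called in controls, 5 lower and 1 higher, and 10 in KO mice, 9 lower and 1 higher. Of all genes, 19.6% and 20.0% were called lower and 16.2% and 17.1% higher. The higher gene was Blnk in both (2.2, SE 0.19, adjusted p = 7.6e-06 in controls, and 2.37, SE 0.19, adjusted p = 4.53e-06 in KO mice). Among the lower genes, Cd72 was at -1.49 (adjusted p = 0.00833) and -1.07 (adjusted p = 0.0375), and Fcrla at -2.52 (adjusted p = 0.0581) and -2.46 (adjusted p = 0.0628). The list median was -1.51 and -1.66, beside 0.02 and 0.01 over all genes. Without the 2 ileal libraries the counts were 3 lower and 2 higher in controls and 6 lower and 2 higher in KO mice, Cd83 being the second higher gene, and Fcrla in controls was no longer called (-1.25, adjusted p = 0.223).

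Of 10 B cell transcription factor genes, 7 were called lower in colon in each genotype, beside 19.6% and 20.0% of all genes, and none higher. The list median was -1.99 in controls and -1.71 in KO mice. The 7 were Bach2, Ciita, Ikzf3, Irf8, Pou2af1, Pou2f2 and Tcf3. Ciita, which drives MHC class II genes, was at -2.82 (SE 0.68, adjusted p = 0.00978) and -2.69 (SE 0.67, adjusted p = 0.0112), and Irf8 at -1.06 (adjusted p = 0.029) and -0.93 (adjusted p = 0.0496). In the 10 other libraries 6 of 9 tested genes were called lower in each genotype and Ciita was at -3.14 and -3.02. Several of these genes are also used by other cells, and the cell source of their RNA was not tested. Irf8 was at 41.2 to 161 CPM over the 12 libraries. All 10 genes were kept by the filter. In both ileal libraries of low muscle RNA, 7 of the 10 were higher and 1 lower, beside 23.2% and 27.2% of all genes kept. The lower gene was Ciita (9.43 and 10.7 against 18.8 to 40.1 CPM). Spib and Tcf3 were higher there, Spib at 10.9 and 13.8 against 1.86 to 2.73 CPM.

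Of 10 germinal centre genes, 7 were higher and 1 lower in both ileal libraries of low muscle RNA. Among the 7 kept by the filter, 4 were higher and 1 lower, beside 23.2% and 27.2% of all genes kept. The higher genes included Bcl6 (10.5 and 9.95 against 5.54 to 7.85 CPM) and Rgs13 (10.4 and 13 against 3.83 to 7.25 CPM). Fas was the lower gene (11.5 and 12.3 against 22.4 to 41.9 CPM). In the tissue comparisons 0 of 7 tested genes were called in controls and 1, Nuggc, was lower in colon in KO mice. With the 2 ileal libraries left out, Rgs13 was called higher and Fas lower in each genotype, out of 6 tested.

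Of 13 genes of lymphoid stroma and follicular dendritic cells, 2 were higher and 6 lower in both ileal libraries of low muscle RNA. Among the 12 kept by the filter, 2 were higher and 6 lower, beside 23.2% and 27.2% of all genes kept. The higher genes were Mfge8 and Madcam1. Mfge8 was higher (28.7 and 35 against 8.51 to 23.6 CPM), whereas the lymphatic and T zone chemokine Ccl21a was lower (4.37 and 2.74 against 9.8 to 20 CPM) and so was Cxcl12 (4.71 and 3.34 against 9.29 to 10.8 CPM). In colon over ileum, Cxcl12 was called higher in both genotypes (1.27, adjusted p = 0.0387, and 1.58, adjusted p = 0.0141), as was Enpp2 (1.32, adjusted p = 0.0483, and 1.71, adjusted p = 0.0163), and Ccl21a in KO mice (1.78, adjusted p = 0.027). These calls held without the 2 ileal libraries. Cxcl13 was at -0.19 (SE 0.67, adjusted p = 0.859) and -0.38 (SE 0.67, adjusted p = 0.704) in the same comparisons.

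Of 14 genes of the lymphotoxin pathway and lymphoid tissue formation, 3 were higher in both of those libraries and 5 were lower. Among the 12 kept by the filter, 2 were higher and 4 lower, beside 23.2% and 27.2% of all genes kept. Relb, an NF-kB subunit acting downstream of the lymphotoxin receptor, was at 108 and 137 against 104 to 126 CPM. In colon 6 of 12 tested genes were called lower in controls and 4 in KO mice, beside 19.6% and 20.0% of all genes, with none higher. In the 10 other libraries 7 and 6 of 13 were called lower, and 1 was called higher in each genotype.

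Of 9 lymphocyte homing receptors, 5 were called lower in colon in each genotype, beside 19.6% and 20.0% of all genes. Among the 5 were Ccr9, Cxcr4, Itgb2 and Itgb7. Ccr9, the gut-homing receptor of the small intestine, was at -2.59 (SE 0.6, adjusted p = 0.00755) and -2.31 (SE 0.58, adjusted p = 0.0119). Without the 2 ileal libraries Cxcr4 was no longer called and the other 4 were. In the ileal libraries of low muscle RNA Ccr9 was low (3.1 and 1.97 against 4.72 to 7.81 CPM).

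Of 9 genes of the follicle-associated epithelium, 2 were higher in those libraries and 5 lower. Among the 7 kept by the filter, 1 was higher and 5 lower, beside 23.2% and 27.2% of all genes kept. Gp2, a receptor of the M cells that cover follicles, named after its values were seen, had 21 and 22 counts there, 0 to 4 counts in the other 4 and 0 to 10 counts in colon. Ccl20, which the same epithelium secretes, was lower there (1.78 and 1.31 against 2.27 to 5.66 CPM).

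Of 14 plasma cell genes, 2 were higher in both ileal libraries of low muscle RNA and 7 lower. Among the 13 kept by the filter, 1 was higher and 7 lower, beside 23.2% and 27.2% of all genes kept. Jchain was at 104 and 91 against 437 to 810 CPM, and Igkc at 149 and 154 against 288 to 1075 CPM. Of 17 T cell genes 0 were higher and 11 lower, with Cd8a at 6.54 and 9.05 against 16.2 to 22.2 CPM. Among the 14 T cell genes kept by the filter, 0 were higher and 10 lower. Of 9 dendritic cell genes 0 were higher and 1 lower, and Itgax was at 3.48 and 4.29 against 3.79 to 8.88 CPM. Among the 8 dendritic cell genes kept by the filter, 0 were higher and 1 lower. All 7 smooth muscle genes were lower, and of 6 fat cell genes 5 were lower, with Adipoq at 0 counts in both against 2.28 to 6.92 CPM. Of 6 epithelial genes 2 were lower, among them Epcam at 2677 and 2980 against 3003 to 3658 CPM. In colon over ileum, 6 of 13 tested plasma cell genes were lower in each genotype, and of 14 tested T cell genes 11 were lower in controls and 7 in KO mice, with none higher in either list. Of all genes, 19.6% in controls and 20.0% in KO mice were called lower. Without both ileal libraries 11 and 8 of 13 plasma cell genes and 13 and 11 of 14 T cell genes were lower in controls and in KO mice, again with none higher. The part of these cells in the levels of the 9 members was not tested.

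**Figure D5:**
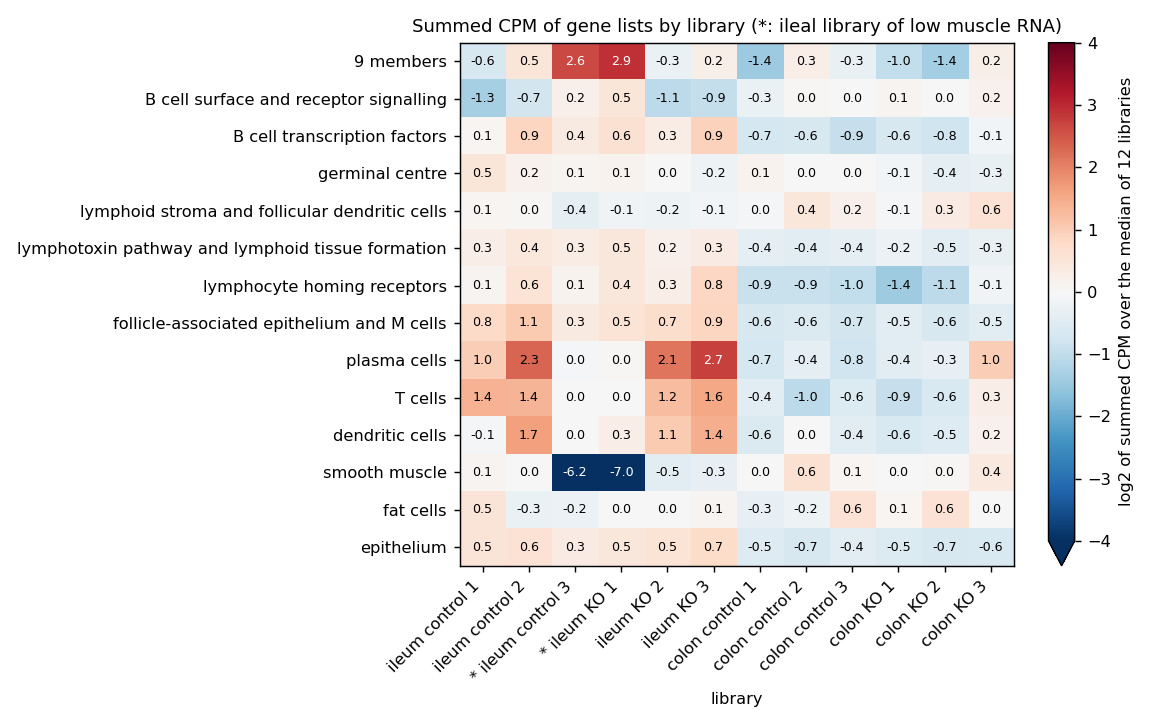
Summed CPM of the 9 members and of 13 gene lists in each library, as log2 of the sum over its median across the 12 libraries (colour and printed value); sums are led by their most abundant genes. The members read 2.64 and 2.91 in the starred ileal libraries of low muscle RNA, where smooth muscle is off the colour scale and plasma and T cell lists are below their values in the other ileal libraries.

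No gene of the 13 lists was called between the genotypes in ileum, in colon or over both tissues. Over both tissues the list medians of the log2 fold change ran from -0.27 for smooth muscle to 0.4 for plasma cells, with 0.05 for B cell surface genes, 0.15 for B cell transcription factors and -0.25 for germinal centre genes, beside -0.08 for the members and 0 for all genes. In colon the plasma cell list had a median of 0.83, with 0 of 13 tested genes called.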

How the data were processed

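RNA of ileal and colonic mucosa was made into cDNA with oligo-dT and sequenced as 150 bp pairs. The authors aligned the reads with STAR to mm10 and deposited 1 table of values per gene. These deposited values are each an expected count (an estimated count of reads), and 93.7% were whole; the study names UMI-tools for removing duplicates and featureCounts for counting, but its strand setting is not stated. Counts were rounded, gene symbols were matched by Ensembl identifier, and 92 spike-in lines, all at 0, were left out.

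Genes were kept by filterByExpr (edgeR 4.0.16, minimum count 10) and scaled by TMM. CPM are TMM-scaled. Each comparison was tested in edgeR's quasi-likelihood model over the 4 groups, with tissue as a term where genotype was tested over both tissues, with Benjamini-Hochberg adjustment over all genes kept and a threshold of 0.1. Each edgeR SE is the size of the log2 fold change divided by the square root of the quasi-likelihood F of its test. An estimate smaller than its SE, or a bar that spans 0, therefore only restates an F below 1. Log2 CPM used a prior count of 2. DESeq2 1.42.0, limma-voom (limma 3.58.1), other scalings, filters and left-out libraries were alternatives.

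The members and the 13 lists were chosen with earlier results of these data known. The text names the 9 members, the 4 most abundant genes of each list and the 10 genes most like the members; others are marked or stand in the counts of called genes, and some genes that this rule names are not reported here. Replicates are separate libraries. The edgeR p-values set a difference of groups against the spread between replicates, pooled over the 4 groups and moderated across genes. Comparisons within colon therefore also carry the spread of the ileal libraries. For the colonic KO effect of Ms4a1 the SE was 1.2 with all libraries and 0.36 without the 2 ileal libraries of low muscle RNA.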

Additional observations from a re-analysis of the deposited data

How the results depend on the processing

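No member that was tested was called between the genotypes under any alternative run, and the directions of these differences were not stable. Not all members were tested in each: 4 passed with 10 counts required in each library of a group, 6 with the libraries of a comparison alone and 7 without the 2 ileal libraries, and DESeq2 gave some no p-value. With limma-voom, the sign turned for the ileal KO effect to -0.30 for Ms4a1, -0.14 for Cd79b, -0.29 for Cr2, -0.37 for Ighd, -0.35 for Cxcl13 and 0.45 for Ccr7. It turned for the tissue difference of the KO effect to 0.12 for Cr2, 0.19 for Ighd, 0.13 for Cxcl13 and -0.36 for Ccr7. It turned for the KO effect over both tissues to -0.31 for Ighd, -0.01 for Cxcr5 and 0.34 for Ccr7. It turned for colon over ileum in KO mice to 0.16 for Cxcr5. With the 2 ileal libraries of low muscle RNA left out, the sign turned for colon over ileum in controls to 1.26 for Ms4a1, 1.43 for Cr2, 0.11 for Ighd and 0.20 for Cxcl13. It turned for colon over ileum in KO mice to 0.45 for Ms4a1, 0.58 for Cr2, 0.66 for Cxcl13 and 1.11 for Cxcr5. It turned for the ileal KO effect to -0.08 for Cd79b, -0.03 for Ighd and -0.61 for Cxcl13. It turned for the KO effect over both tissues to -0.11 for Ighd. It turned for the tissue difference of the KO effect to 0.45 for Cxcl13. With the replicate block, the sign turned for the colonic KO effect to -0.37 for Cd79a. It turned for the KO effect over both tissues to 0.03 for Cd79b and -0.07 for Ighd. With scaling by library size only, the sign turned for the tissue difference of the KO effect to 0.06 for Cd79a. It turned for colon over ileum in controls to 0.02 for Cxcl13. With upper-quartile scaling, the sign turned for the ileal KO effect to -0.02 for Cxcl13. Over the 12 omissions of 1 library, the ileal KO effect ran from -2.42 to 2.72 for Ms4a1, from -1.16 to 1.85 for Cd79a, from -0.87 to 0.86 for Cd79b, from -3.94 to 4.50 for Cr2, from -2.36 to 2.83 for Ighd, from -1.01 to 0.43 for Cxcl13, from -2.29 to 1.44 for Cxcr5 and from -0.90 to 0.24 for Ccr7. Likewise the colonic KO effect ran from -1.51 to 0.80 for Cd79a, from -0.99 to 0.65 for Cd79b, from -2.22 to 0.40 for Cr2, from -0.78 to 0.13 for Ighd, from -0.82 to 0.15 for Cxcl13 and from -0.44 to 0.70 for Ccr7. Likewise the KO effect over both tissues ran from -1.50 to 0.62 for Ms4a1, from -0.50 to 0.99 for Cd79a, from -0.55 to 0.34 for Cd79b, from -2.07 to 1.64 for Cr2, from -1.20 to 1.19 for Ighd, from -0.54 to 0.09 for Cxcl13, from -0.49 to 1.15 for Cxcr5 and from -0.52 to 0.19 for Ccr7. Likewise the tissue difference of the KO effect ran from -3.50 to 1.62 for Ms4a1, from -1.70 to 1.31 for Cd79a, from -1.06 to 0.65 for Cd79b, from -4.88 to 3.54 for Cr2, from -3.00 to 2.17 for Ighd, from -0.83 to 0.83 for Cxcl13, from -0.52 to 3.20 for Cxcr5 and from -0.12 to 1.05 for Ccr7. Likewise colon over ileum in controls ran from -1.68 to 1.26 for Ms4a1, from -3.78 to 1.43 for Cr2, from -2.75 to 0.11 for Ighd and from -0.52 to 0.21 for Cxcl13. Likewise colon over ileum in KO mice ran from -2.75 to 0.44 for Ms4a1, from -5.30 to 0.56 for Cr2, from -1.04 to 0.64 for Cxcl13 and from -1.20 to 1.10 for Cxcr5. The cause of these turns was not tested.

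The count of members called in colon over ileum in controls was 1 and became 2 with DESeq2, with no filter beyond 1 count and without the 2 ileal libraries, and 0 to 3 with 1 library left out. These extra calls were Cd79a with DESeq2 (adjusted p = 0.0857) and with no filter (0.0858), Ms4a1 without the 2 ileal libraries, Cd79a and Ccr7 without ileum control replicate 1 (0.0571 and 0.03), Cd79a and Cxcr5 without ileum KO replicate 1 (0.0744 and 0.0884) and Cd79a without colon KO replicate 3 (0.0917). In KO mice the count was 2 and became 4 with DESeq2, 3 with no filter beyond 1 count, 1 with limma-voom, upper-quartile scaling, library size only, the threshold of 0.05 or without the 2 ileal libraries, and 1 to 5 with 1 library left out. Here the extra calls were Fcer2a (0.0263) and Ighd (0.0515) with DESeq2, Fcer2a with no filter (0.0688), Ms4a1 (0.0885), Cr2 (0.0933) and Ighd (0.073) without ileum control replicate 3, Fcer2a (0.096) and Ccr7 (0.0947) without ileum control replicate 1, and Fcer2a (0.0579) and Ighd (0.0785) without ileum KO replicate 2. Fcer2a, which passed the filter only when some libraries were left out, was also called without colon control replicate 1 (0.0921), colon control replicate 3 (0.0944), ileum KO replicate 3 (0.0761) or ileum control replicate 2 (0.0614). The median of all genes was 0.238 in controls and 0.285 in KO mice with library size only, and 0.116 and 0.145 with upper-quartile scaling, against 0.016 and 0.014 with TMM. Library size only moved the split of calls from 2689 higher and 3251 lower to 4155 and 2102 in controls, and from 2837 and 3312 to 4637 and 1908 in KO mice, where upper-quartile scaling gave 3678 and 2634. Cd79b stayed called lower under each scaling. Over all genes the genotype counts, 0 in each comparison, became 2 in ileum, 4 over both tissues and 1 for the tissue difference with DESeq2, 1 in ileum and 1 over both tissues with limma-voom, 3 and 5 without the 2 ileal libraries, 1 in colon with the libraries of that comparison alone, and 0 to 1 in ileum and over both tissues with 1 library left out.

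Correlations of residuals could not settle whether libraries of the same number were paired. Of 18 same-number pairs 5 were over 0.1, from -0.694 to 0.404, but most of these pairs joined a KO to a control library. Such pairs cannot come from 1 mouse. Between ileum and colon of control mice the values were -0.053, 0.165 and -0.08 for replicates 1 to 3. In KO mice they were 0.192, 0.051 and 0.251. With the replicate block Cd79b was at -2.49 (adjusted p = 0.0761) and -3.17 (adjusted p = 0.0382), and the members called were 1 in controls and 2 in KO mice. Without the 2 ileal libraries, an alternative added after seeing the data for these measures, the median within-group SD of the members fell from 1.58 to 0.87 and their median r in ileum from 0.9 to 0.22. Depth limits Fcer2a, Ccr7 and colonic Cr2, which rest on a few counts per library.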

Other observations

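The 24 genes that were more than 4-fold higher in both ileal libraries of low muscle RNA than in the other 4 were not all genes of B cells. Beside the members, Pax5, Siglecg and H2-Ob were among the B cell genes from the lists. Slc2a2, the glucose transporter GLUT2, was at 66.5 and 43.3 CPM in those 2 libraries, 0.0555 to 0.731 CPM in the other ileal libraries and 0 to 0.0942 CPM in colon. Pnliprp2, a pancreatic lipase-related gene, was at 136 and 114 CPM, then 13.6 to 26.8 CPM, then 0.409 to 1.49 CPM. The early response gene Fosb was at 6.88 and 8.52 CPM against 0.944 to 1.7 CPM. These genes were picked after their values were seen, and no test was made.

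In colon, where no library stood apart in muscle RNA, replicate 3 of the KO group had the highest Cd79a (1.87 CPM), Ighd (0.747 CPM), Cxcl13 (3.65 CPM) and Cxcr5 (0.747 CPM), and its plasma cell list summed to 1140 CPM against 334 to 460 CPM in the other 5 colonic libraries. Ms4a1 in that library was 1.12 CPM, within the range of the others. Ms4a1, Cd79b, Cr2, Fcer2a and Ccr7 were each highest in a control colonic library, at 2.25, 1.53, 0.479, 0.376 and 0.192 CPM. Colon control replicate 2 had the larger sum of the 9 members (10.5 against 10.1 CPM), with a plasma cell sum of 452 CPM. The summed plasma cell RNA was not tested as a source of these levels.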
